A study of Mus musculus with 27 samples.

Results

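The response of wild-type microglia to bacterial lipopolysaccharide (LPS) plus interferon-γ (IFNγ) was read across all genes in 6 libraries, chosen by their labels from the 27 libraries of the series: 3 of unstimulated cells and 3 of cells kept for 16 h with IFNγ at 20 ng/ml and LPS (from E. coli, serotype 0127:B8) at 100 ng/ml. The unstimulated and stimulated libraries compared carry neighbouring library numbers, 3012 to 3014 and 3015 to 3017. The microglia, which are the brain's own macrophages, were shaken off mixed glial cultures of neonatal C57BL/6J cortex after about 14 days and rested for 24 h before treatment, so the cells are a culture model in which astrocytes and meningeal cells can be carried along. Other groups of the series served as points of reference: wild-type microglia treated with PolyI:C, a double-stranded RNA analogue, or with CpG DNA, a further set of 3 unstimulated wild-type libraries with other library numbers, and unstimulated and LPS+IFNγ-treated microglia labelled CB2-/- (B6.Cg-Cnr2tm1Zim), from mice that lack the cannabinoid receptor encoded by Cnr2. PolyI:C and CpG engage Toll-like receptors (TLR) 3 and 9, and the series was set up to compare microglia of both genotypes after such stimuli.

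LPS is bound by TLR4 with CD14 and MD-2, and the adaptors MyD88 and TRIF carry the signal to NF-κB, AP-1 and interferon regulatory factors. IFNγ acts through a receptor of its own and the kinases JAK1 and JAK2 on STAT factors, which bind GAS elements and induce further factors such as IRF1, while interferon-stimulated response elements (ISRE) are bound by IRF and STAT complexes. In macrophages the pair is the classical stimulus for microbicidal and antigen-presenting functions, and in microglia it is known to lower the genes of the resting state.

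The deposited normalised counts summed to between 6506348 and 6662554 in the unstimulated and between 9322046 and 9471790 in the stimulated libraries, and the number of reads behind them is not known. No value above 0 was shared exactly by any pair of replicates, and over 8457 genes with a group mean of at least 100 the SD of the log2 difference between replicates ran from 0.56 to 0.88 among the unstimulated and from 0.35 to 0.39 among the stimulated libraries. Of the defining markers of microglia and macrophages 21 of 21 listed genes were tested, and most were abundant in all 6 libraries. Tmem119 (3.18, 2.96 and 19.8) and P2ry12 (36, 39.1 and 24) were low in the stimulated ones. The summed normalised count of all 21, with Lyz2 the largest part, was 400700 to 425100 in unstimulated and 263100 to 274100 in stimulated cells. Unstimulated replicate 2 stood apart in markers of other cells: astrocyte markers summed to 330, 1803 and 498 in the unstimulated and to 1073, 1281 and 1149 in the stimulated libraries. Fibroblast and meningeal markers summed to 5580, 32640 and 21410 against 2869, 3169 and 2394, but these sums are mostly Fn1 (5127, 28685 and 20351 against 1428, 1648 and 1083). Of the 15 markers, 1 was called higher (Postn, 3.42 ± 0.53), 2 lower (Fn1 and Igfbp4) and 12 were not called. Col1a1, of the last, stood at 0, 1425 and 172 against 236, 280 and 253. The labels do not say whether replicates came from separate cultures or animals, so the p-values rest on a spread between replicate libraries that may be technical. That spread was estimated over all 27 libraries of the series and not from these 6 alone. In bulk RNA, fewer cells of a type and less RNA per cell cannot be told apart.

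Of 14668 genes tested with limma on log2(normalised count + 1), 5830 (39.7%) passed an adjusted p of 0.05, 3186 (21.7%) higher and 2644 (18%) lower in stimulated cells, and each fold change below compares 3 libraries with 3 and carries its standard error (SE). In 7605 genes (51.8%) the 3 libraries of 1 group lay beyond all 3 of the other, 27% higher and 24.8% lower. Such separation was a condition for naming most of the genes below, so where it is mentioned it adds nothing to their tests. Rises were the larger changes: 608 genes rose and 281 fell by at least 3 on the log2 scale, and 170 rose and 39 fell by at least 5. Genes called higher held 29.0 to 29.6% of the summed normalised count in unstimulated and 65.3 to 65.4% in stimulated libraries, whereas genes called lower went from 38.9 to 39.3% down to 13 to 13.1%. Scaling all libraries to the same sum, chosen after seeing these sums, left 1537 genes higher and 4085 lower, so that 27.3% of calls in place of 54.6% were higher. It took the median over all genes from 0.05 to -0.44 on the log2 scale, and a small change is therefore one relative to the deposited scaling. The cytokine list had 23 of 27 tested members higher and the chemokine list 19 of 24, and neither is taken up further. Counts of higher and lower members in the lists below stand against the shares of 21.7% and 18% among all genes tested.

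**Figure D1:**
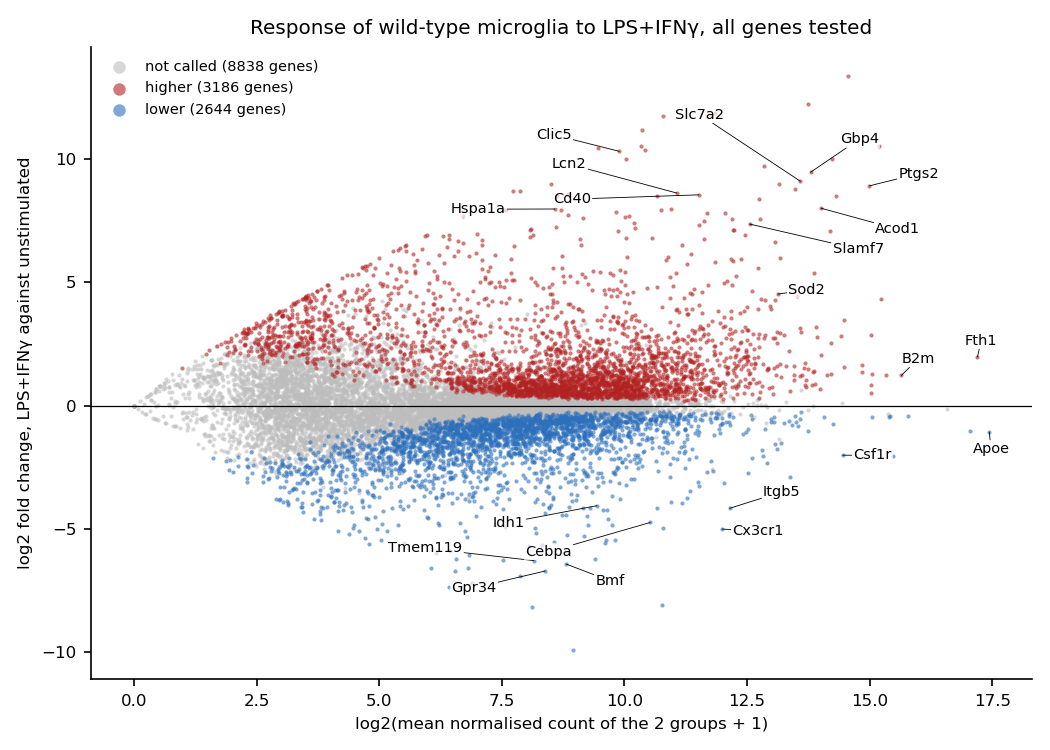
Each point is 1 of 14668 genes, with its mean normalised count over both groups (log2, x axis) against its log2 fold change in LPS+IFNγ-treated against unstimulated wild-type microglia (y axis). Red marks the 3186 genes called higher and blue the 2644 called lower. Named rises reach 10.32 (Clic5) and named falls reach -6.72 (Gpr34).

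The interferon-induced GTPases, guanylate-binding proteins (GBP) and immunity-related GTPases that attack the vacuoles of intracellular microbes, were all called higher, 21 of 21 with a median log2 fold change of 6.47, where the median of all genes tested was 0.05. Gbp4 (ENSMUSG00000079363.7, chr5:105115767-105139586 on the minus strand in GRCm38) stood at 21.8, 54.3 and 49.3 in the unstimulated and at 26728, 29277 and 29076 in the stimulated libraries. Gbp2 stood at 53.5, 159 and 150.1 and at 37899, 40269 and 42841. Gbp5, which is known to promote inflammasome assembly, stood at 16.7, 37.7 and 63.8 and at 16658, 18509.8 and 19502. The groups of all of these lie far apart, with a log2 fold change 9.47 ± 0.31, adjusted p = 1.83e-17 for Gbp4. The test gave log2 fold change 8.52 ± 0.33, adjusted p = 4.92e-16 for Gbp2 and log2 fold change 9.0 ± 0.53, adjusted p = 7.86e-13 for Gbp5. Gbp10 (9.01), Gbp8 (6.47), the immunity-related GTPase gene Iigp1 (9.74) and the paralogs Tgtp1 (10.02) and Tgtp2 (7.12) rose as well on the log2 scale. Gbp10 and Tgtp1 were listed at 0 in at least 2 of the 3 unstimulated libraries. These families hold near-identical copies whose reads can be divided between genes, so a single member's value is less certain than the group's.

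Promoter windows of RefSeq (GRCm38.p6), 250 bases before to 50 after a gene's start, were searched on both strands for short motifs. Windows of 6 genes are shown because they carry motifs of the pathways stimulated, and Ptgs1 one of the lowered genes. In Gbp5 (chr3:142496684-142496983, plus strand) capitals mark 1 ISRE core (GAAA, any 2 bases, GAAA), 2 GAS matches (TTCNNNGAA) and the NF-κB match (GGGA, any base, TTTCC), each on either strand. In Gbp2 (chr3:142620413-142620712, plus) they mark the ISRE core and the AP-1 match TGANTCA. In Isg15 (chr4:156200769-156201068, minus) they mark 3 overlapping ISRE cores and in Socs1 (chr16:10785487-10785786, minus) 2. In Slamf8 (chr1:172590519-172590818, minus) they mark the ISRE core and the AP-1 and NF-κB matches. In Ptgs1 (chr2:36230176-36230475, plus), a gene that fell, they mark the match GAGGAAGT of the macrophage factor PU.1.
Gbp5: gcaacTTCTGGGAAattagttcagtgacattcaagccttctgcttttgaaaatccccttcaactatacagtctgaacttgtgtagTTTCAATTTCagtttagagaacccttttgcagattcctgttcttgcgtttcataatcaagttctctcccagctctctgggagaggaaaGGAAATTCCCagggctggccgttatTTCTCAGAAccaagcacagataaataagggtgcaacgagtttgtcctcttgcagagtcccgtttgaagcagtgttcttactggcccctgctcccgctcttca
Gbp2: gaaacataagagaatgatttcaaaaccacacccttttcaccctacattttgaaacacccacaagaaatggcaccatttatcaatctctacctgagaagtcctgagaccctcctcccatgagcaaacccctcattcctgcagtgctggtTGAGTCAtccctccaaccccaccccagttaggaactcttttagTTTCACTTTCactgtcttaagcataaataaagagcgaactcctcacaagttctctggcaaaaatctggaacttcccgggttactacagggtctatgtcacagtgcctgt
Isg15: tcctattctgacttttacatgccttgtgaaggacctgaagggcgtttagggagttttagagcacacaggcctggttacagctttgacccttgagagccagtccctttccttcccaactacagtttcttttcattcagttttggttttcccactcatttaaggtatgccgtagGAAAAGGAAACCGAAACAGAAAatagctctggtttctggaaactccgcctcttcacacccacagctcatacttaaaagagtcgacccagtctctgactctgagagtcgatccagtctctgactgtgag
Socs1: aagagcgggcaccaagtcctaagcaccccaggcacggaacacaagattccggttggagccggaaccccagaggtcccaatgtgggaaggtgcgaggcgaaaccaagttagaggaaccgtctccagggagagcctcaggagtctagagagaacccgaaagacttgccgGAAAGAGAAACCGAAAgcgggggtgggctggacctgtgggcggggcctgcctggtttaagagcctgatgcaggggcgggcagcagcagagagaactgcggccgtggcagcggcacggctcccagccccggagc
Slamf8: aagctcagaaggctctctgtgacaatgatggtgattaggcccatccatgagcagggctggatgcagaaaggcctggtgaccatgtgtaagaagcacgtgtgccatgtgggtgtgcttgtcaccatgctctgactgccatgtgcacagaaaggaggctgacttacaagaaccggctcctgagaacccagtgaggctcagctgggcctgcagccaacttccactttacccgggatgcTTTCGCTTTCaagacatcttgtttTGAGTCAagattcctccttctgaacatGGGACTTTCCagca
Ptgs1: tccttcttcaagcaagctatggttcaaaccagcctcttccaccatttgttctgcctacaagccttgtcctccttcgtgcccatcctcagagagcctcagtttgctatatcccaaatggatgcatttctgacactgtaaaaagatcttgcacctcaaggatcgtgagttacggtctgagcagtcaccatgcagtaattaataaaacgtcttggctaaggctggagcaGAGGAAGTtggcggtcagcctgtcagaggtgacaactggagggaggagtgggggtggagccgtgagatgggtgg
The ISRE core was found in 18.1% of 127 windows of genes higher by at least 5 on the log2 scale, in 9.69% of windows of genes higher by 3 to 5, in 2.7% of windows of genes not called and in 3.34% of all 12634 windows of this length. The AP-1 match was found in 20.5%, 12.5%, 4.9% and 5.31% of the same windows, so both motifs were more frequent the larger the rise. That order was not particular to them. The letters TATAAA, searched in that orientation only, were in 17.3%, 7.96%, 4.04% and 4.45%. A C/EBP match (TTGCNNAA) was in 15.7%, 12.1%, 8.05% and 8.51%, and in 12.8% of windows of genes lower by at least 3. GAS was in 11.8% of windows of the most raised genes and 6.92% of all, and the NF-κB match in 3 of those 127 windows (2.36%) and 0.443% of all. The PU.1 match, whose factor is encoded by Spi1 (log2 fold change 0.74 ± 0.13, and -0.07 under quantile scaling), was in 7.2% of 250 windows of genes lower by at least 3 and 3.18% of all. It was also in 4.72% of windows of genes higher by at least 5, and in 2.93% of those lower by 1 to 3. Windows were found for 9844 of 12636 protein-coding genes, a gene can have several, and those of the most raised genes held less G and C, with a median of 50.3% against 60.7% in all. A match is a description of letters and not a bound site.

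**Figure D2:**
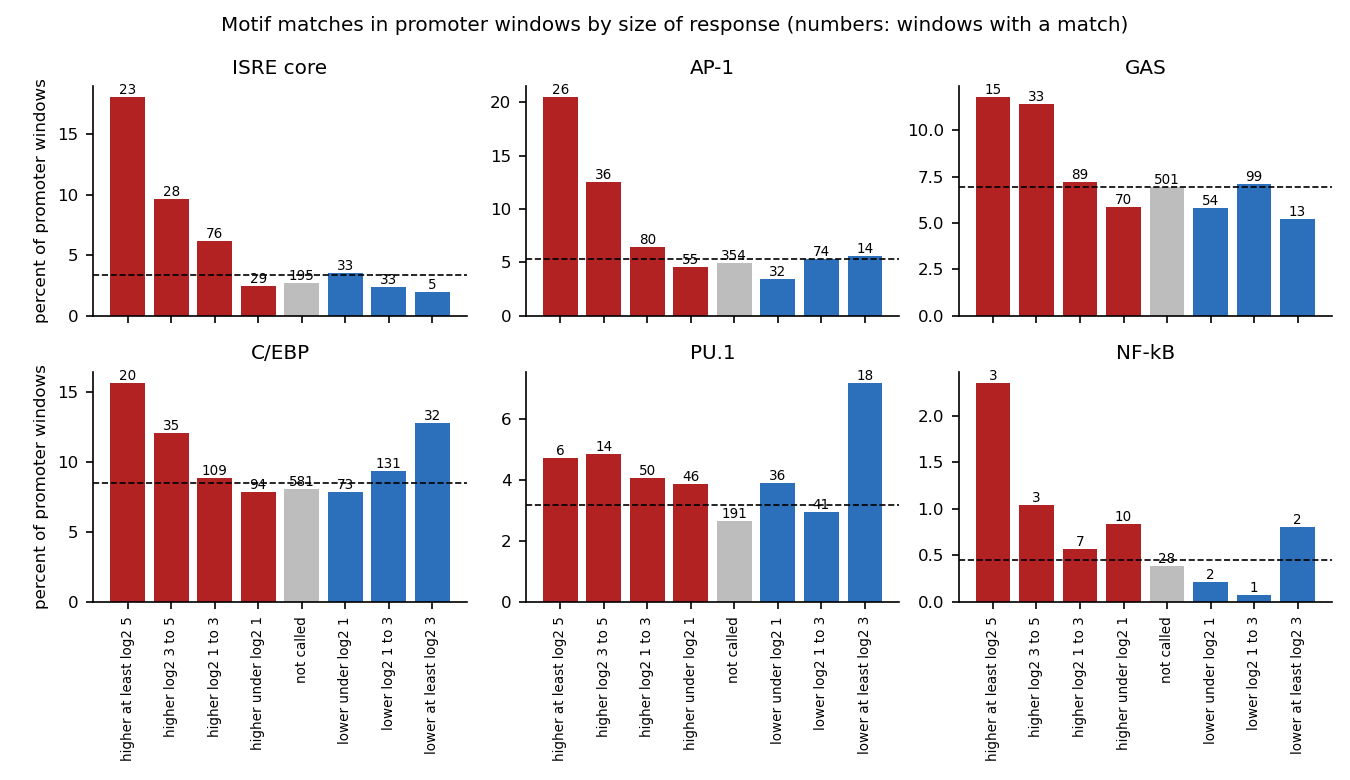
Bars give the percentage of promoter windows with at least 1 match to the motif named above each panel, by direction and size of the gene's response (red higher, grey not called, blue lower), and the number on a bar is the count of windows with a match. The dashed line is the share among all windows. The ISRE core and AP-1 panels fall from left to right across the red bars, whereas the tallest bar of the PU.1 panel is that of the genes lowered by at least 3 on the log2 scale.

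Genes of nucleic acid sensing and antiviral defence largely moved with the GTPases: 38 of 47 were higher and 6 lower (median 2.31). Rsad2, which encodes the antiviral enzyme viperin, went from 169, 193 and 148 to 16492, 15967 and 18762. The ubiquitin-like modifier gene Isg15 went from 311, 252 and 197 to 9317, 9163 and 10369. No stimulated library overlapped an unstimulated one at either gene (log2 fold change 6.65 ± 0.28, adjusted p = 1.49e-15 for Rsad2 and log2 fold change 5.26 ± 0.20, adjusted p = 3.25e-16 for Isg15). Schlafen genes Slfn1 (6.80 ± 0.48) and Slfn4 (7.63 ± 0.86) and the mitochondrial nucleotide kinase gene Cmpk2 (4.91 ± 0.30) rose too. Among the members that fell, Mavs, the adaptor of the RIG-I pathway, went from 429.9, 393 and 367 to 140.4, 168 and 172, Apobec1, a cytidine deaminase gene, changed by -1.94 ± 0.24, and Tlr8 by -1.16 ± 0.16.

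Members of these families lie side by side in the genome. Runs of at least 4 neighbouring tested protein-coding genes called in the same direction held 350 of 2819 called higher, in 70 runs, and 147 of 2501 called lower, in 32. Of tested protein-coding genes 22.3% were higher and 19.8% lower, and how many runs such shares give without clustering was not tested. Other genes between neighbours were skipped, and some runs are wide, such as Btg3 to Mrpl39 over 6403.1 kb. The longest run comprised 13 genes on chromosome 1 (chr1:173350879-174044411), from Aim2, a cytosolic DNA sensor, through genes of the Ifi200 family to Olfr433, with log2 fold changes between 0.45 and 5.87. A run of 7 genes on chromosome 11 (chr11:48946150-49135387) held Tgtp1, Tgtp2 and Ifi47 with the olfactory receptor genes Olfr56 and Olfr1396, all higher by 1.02 to 10.02, and the Schlafen genes formed another run of 7 (chr11:82951349-83215154). The longest run of lower genes had 9 members on chromosome 17 (chr17:87107679-88588367), from Socs5 to Ppp1r21, with a median of -0.69. Positions are those of GENCODE M21 (GRCm38), and neighbours in a family can share reads.

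Antigen presentation rose as a set on the class I side. All 19 of 19 tested genes of MHC class I and peptide loading were higher (median 2.67), and 33 of 33 proteasome genes were higher (median 1.32), constitutive subunits included. The peptide transporter gene Tap1 stood at 568, 877 and 638 and at 10474, 10696 and 11412. The immunoproteasome gene Psmb8 stood at 794, 1029 and 889.9 and at 5746, 5267 and 6319. Psme2, a subunit of the proteasome activator PA28, stood at 914, 539 and 746 and at 8236, 8416 and 8933. All 3 genes were separated without overlap, with log2 fold change 3.99 ± 0.16, adjusted p = 4.92e-16 for Tap1. The test gave log2 fold change 2.68 ± 0.12, adjusted p = 3.04e-15 for Psmb8 and log2 fold change 3.57 ± 0.16, adjusted p = 6.4e-15 for Psme2. The abundant classical genes H2-K1 (1.67 ± 0.11) and H2-D1 (1.26 ± 0.10) and B2m (1.22 ± 0.11), the light chain of all class I molecules, rose less than the non-classical genes H2-Q6 (4.34 ± 0.12) and H2-Q7 (3.93 ± 0.16), although these paralogs can share reads. With the libraries scaled to the same sum, 14 of the class I and 25 of the proteasome genes were still called higher and none lower.

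Class II genes were divided. The chains that present peptide were low in unstimulated cells and rose: H2-Ab1 went from 29.3, 26 and 16 to 708, 667 and 652 (log2 fold change 4.81 ± 0.27, adjusted p = 4.87e-13). H2-Aa went from 0, 0 and 8.6 to 138, 136 and 161. H2-Eb1 went from 0, 1.68 and 1.48 to 155, 136 and 198. Among the lower genes was H2-DMa, a chain of the peptide exchange factor, which stood at 135, 159 and 196 and at 60, 55.8 and 79.7 (log2 fold change -1.31 ± 0.45, adjusted p = 0.0229). Ifi30, a lysosomal thiol reductase that unfolds antigens, stood at 483, 827 and 716 and at 388, 383 and 357 (log2 fold change -0.81 ± 0.20, adjusted p = 0.00191). In all, 7 of 13 were higher and 4 lower, with a median of 0.54 that became -0.08 under quantile scaling. The other lower genes, H2-DMb2 named after its values were seen, were H2-DMb2 (-2.26 ± 0.75), of the same exchange factor, and the cathepsin S gene Ctss (-0.47 ± 0.11). Against the other unstimulated wild-type libraries H2-DMb2 was not called (-0.77, adjusted p = 0.455), and Ctss was called higher (0.47, adjusted p = 0.00178 in limma). H2-DMb2 was also not called without unstimulated replicate 1 (adjusted p = 0.0515), unstimulated replicate 2 (adjusted p = 0.053) or stimulated replicate 3 (adjusted p = 0.119). The fall of H2-DMa was -0.43 and not called against the other unstimulated wild-type libraries (adjusted p = 0.489), nor called in a fit of the 12 libraries with numbers 3012 to 3023 (adjusted p = 0.114). It also rested on single libraries, with adjusted p = 0.0822 without unstimulated replicate 3, 0.0637 without stimulated replicate 1 and 0.0739 without stimulated replicate 2 in limma.

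Surface molecules that address lymphocytes rose in most cases, 10 of 14 with 2 lower. Cd40, the receptor for the T cell ligand CD154, went from 26.5, 8.68 and 13 to 5997, 5797 and 5725 (log2 fold change 8.56 ± 0.43, adjusted p = 5.6e-14). Cd274, which encodes the checkpoint ligand PD-L1, went from 257, 262 and 352 to 17924, 19102 and 17512 (log2 fold change 5.98 ± 0.20, adjusted p = 3.25e-17). The costimulator Cd86 went from 536, 589 and 666 to 8632, 8789 and 8435 (log2 fold change 3.86 ± 0.22, adjusted p = 6.4e-13). Activating and inhibitory ligands thus rose side by side, while the checkpoint gene Vsir (VISTA), abundant in unstimulated cells at 5737, 5233 and 4949.7, fell to 574, 529 and 562 (log2 fold change -3.25 ± 0.20, adjusted p = 1.93e-12), and Cd276 (B7-H3) changed by -2.48 ± 0.69. Paired and SLAM family receptors split likewise, 19 of 34 higher and 8 lower: the SLAM receptor gene Slamf7 stood at 106, 52.2 and 64.2 and at 12092, 11869.9 and 11770.5 (log2 fold change 7.37 ± 0.24, adjusted p = 1.38e-17) and Slamf8 changed by 6.15 ± 0.52, but the inhibitory receptor Cd300a stood at 1592, 1574 and 1472 and at 38, 87.7 and 74.4 (log2 fold change -4.60 ± 0.32, adjusted p = 2.61e-11) and Cd300lb changed by -4.26 ± 0.32.

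Transcription factors of the bZIP, Rel, IRF and STAT families were mostly higher, 27 of 38, with 6 lower. Irf1, an IRF induced by IFNγ, stood at 488, 341 and 619 and at 11715, 11727 and 12293 (log2 fold change 4.66 ± 0.20, adjusted p = 2.8e-15). Batf2, a bZIP partner induced by IFNγ, stood at 17.3, 7.37 and 16.3 and at 2264, 2329 and 2435 (log2 fold change 7.40 ± 0.54, adjusted p = 4.22e-11). Irf8, an IRF of the microglial lineage, stood at 2022, 2134 and 2123 and at 6297, 6265 and 6428 (log2 fold change 1.60 ± 0.25, adjusted p = 1.09e-05). Other factors fell. Cebpa, a C/EBP factor of myeloid differentiation, went from 2764, 3064 and 2701 to 96.3, 120.1 and 99.7 (log2 fold change -4.75 ± 0.14, adjusted p = 3.07e-18). Mef2c went from 1127, 595 and 1029 to 103, 121 and 69.7 (log2 fold change -3.20 ± 0.32, adjusted p = 9.79e-09). Both factors are known from the differentiation of myeloid cells or microglia, and in both the stimulated libraries lay below all unstimulated ones. The immediate early gene Fos went from 2266, 1018 and 1341 to 183, 227 and 249 (log2 fold change -2.74 ± 0.20, adjusted p = 4.27e-11). Among lineage factors as a list, 10 of 34 rose, including Ets2 (1.94 ± 0.15) and Klf6 (1.70 ± 0.16), and 9 fell, including Hhex (-2.18 ± 0.30) and Bhlhe41 (-2.75 ± 0.43). The list thus had no common direction, and its shares of 29.4% higher and 26.5% lower were near the 21.7% and 18% of all genes tested. Nuclear receptors were divided too: the glucocorticoid receptor gene Nr3c1 (1.13 ± 0.15) and the oxysterol receptor gene Nr1h3 (3.07 ± 0.36) rose, while Rxra (-1.47 ± 0.23), Rxrb (-1.21 ± 0.16) and the orphan receptor gene Nr4a1 (-2.35 ± 0.27) fell.

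Receptor genes of both agents changed unequally after 16 h. Tlr4 went from 781, 788 and 758 to 245, 282 and 352 (log2 fold change -1.42 ± 0.22, adjusted p = 8.95e-06). Ifngr1, the ligand-binding chain of the IFNγ receptor, went from 2456, 2098 and 2089 to 407, 395 and 395 (log2 fold change -2.47 ± 0.11, adjusted p = 3.49e-15). Cd14, the coreceptor of LPS, named after its values were seen, rose from 13196, 8570.4 and 10460.0 to 25215, 23919.6 and 25487 (log2 fold change 1.23 ± 0.25, adjusted p = 0.000364). The rise was 0.18 and not called under quantile scaling (adjusted p = 0.64), and 0.72 with the libraries scaled to the same sum (adjusted p = 0.112 in limma). Tlr2, a receptor for bacterial lipoproteins, went from 3448, 3478 and 3534 to 1158, 1033 and 1075 (log2 fold change -1.68 ± 0.18, adjusted p = 5.78e-08), whereas Nod1, a cytosolic peptidoglycan sensor gene, rose by 3.79 ± 0.30. Inhibitors of these pathways rose, 22 of 34 against 5 lower. Socs1, which inhibits JAK kinases, stood at 5.46, 16.8 and 8.12 and at 2569, 1665 and 2274 (log2 fold change 7.72 ± 0.65, adjusted p = 6.11e-10). Socs3 stood at 181, 314 and 291 and at 8577, 8128 and 8805 (log2 fold change 5.06 ± 0.23, adjusted p = 6.84e-15). Every stimulated library lay far above the unstimulated ones at both SOCS genes. Irak3, a dampener of TLR signalling, stood at 193, 192 and 201 and at 2198, 2263 and 2160.1 (log2 fold change 3.49 ± 0.14, adjusted p = 7.4e-16). The cytokine mRNA nuclease gene Zc3h12a stood at 258, 223 and 205 and at 2135, 2034 and 2146 (log2 fold change 3.20 ± 0.17, adjusted p = 1.34e-13). The phosphatase gene Dusp2 (4.85 ± 0.43) rose from low values, and the adaptor gene Traf1 (7.84 ± 0.29) and the kinases Jak2 (3.0 ± 0.16) and Pim1 (4.86 ± 0.12) rose as well, while the mRNA decay factor genes Zfp36l1 (-1.71 ± 0.32) and Zfp36l2 (-2.54 ± 0.15) fell.

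**Figure D3:**
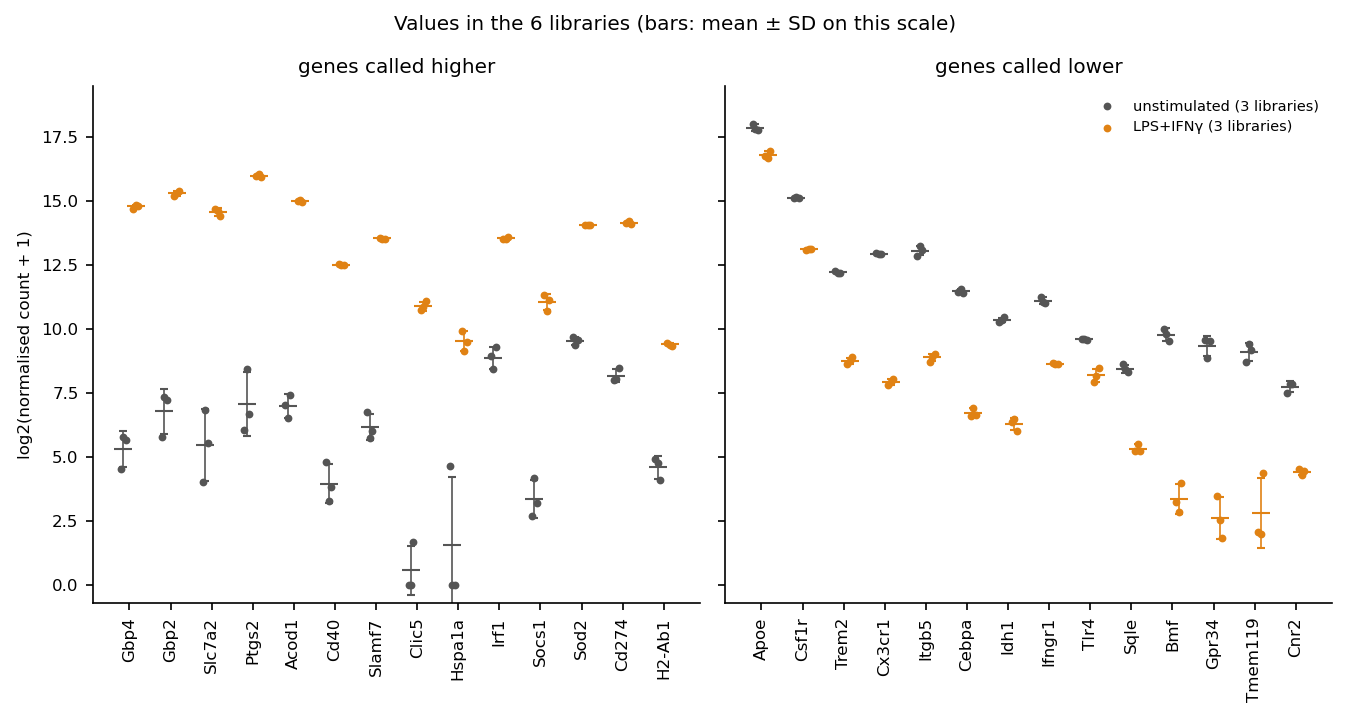
Values of 28 genes in each of the 6 libraries as log2(normalised count + 1), with bars for the mean ± SD of 3 libraries on that scale. All 3 LPS+IFNγ libraries (orange) lie on 1 side of the 3 unstimulated libraries (grey), which was a condition for naming the genes drawn. The spread is wider where values are near 0, as in Clic5, Hspa1a and Tmem119.

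Homeostatic microglia genes, which mark the cells of the undisturbed brain, fell in 17 of 25 cases and rose in 1 (median -2.06). Cx3cr1, the fractalkine receptor through which neurons address microglia, went from 7929, 7859 and 7869 to 224, 245 and 262 (log2 fold change -5.01 ± 0.19, adjusted p = 4.18e-16). Tmem119 went from 420.5, 677 and 581 to 3.18, 2.96 and 19.8 (log2 fold change -6.29 ± 0.52, adjusted p = 4.03e-10). Gpr34, a receptor for lysophosphatidylserine, went from 769, 469 and 740.3 to 10.2, 4.74 and 2.6 (log2 fold change -6.72 ± 0.60, adjusted p = 1.59e-09). These are the steepest falls of the list, with Tmem119 and Gpr34 reduced to a small remainder in each stimulated library. The purinergic receptor gene P2ry12 went from 301, 369 and 385 to 36, 39.1 and 24 (log2 fold change -3.40 ± 0.49, adjusted p = 4.56e-06). Some of the falls left high levels behind: Csf1r, the receptor on which microglial survival depends, stood at 35539.5, 36201 and 35754 and still at 8719, 9010.5 and 8870.0 (log2 fold change -2.01 ± 0.13, adjusted p = 4.37e-12). Mertk, a phagocytic receptor tyrosine kinase, was the single member that rose, from 1472, 1393 and 1511 to 4229, 4291 and 3762 (log2 fold change 1.49 ± 0.14, adjusted p = 2.65e-09). TGF-β signalling, the pathway that sustains this state, had 11 of 26 genes lower and 1 higher, with falls in the receptor gene Tgfbr1 (-2.35 ± 0.15), the feedback gene Smad7 (-2.06 ± 0.31) and the target Tgfbi (-2.16 ± 0.16).

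Genes of disease-associated microglia did not move as one, with 7 of 24 higher and 15 lower. The lipid-sensing receptor gene Trem2 stood at 4870.1, 4634 and 4715 and at 399.6, 426 and 472 (log2 fold change -3.45 ± 0.25, adjusted p = 3.84e-11). The pyrophosphate transporter gene Ank stood at 747, 688 and 617 and at 27.9, 41.6 and 56.6 (log2 fold change -4.04 ± 0.26, adjusted p = 3.58e-12). The lipid carrier gene Apoe stood at 266484, 229072 and 225532 and at 110873, 104477 and 127126 (log2 fold change -1.07 ± 0.16, adjusted p = 5.87e-06), a fall that was not called under quantile scaling (-0.85, adjusted p = 0.0727 in limma). The growth factor gene Igf1 changed by -2.13 ± 0.16. Cst7, a cystatin, rose from 203, 373 and 379.6 to 2173, 2171 and 1967 (log2 fold change 2.77 ± 0.38, adjusted p = 1.65e-06), and the integrin gene Itgax by 2.57 ± 0.62. Ctsd (cathepsin D) went from 60506, 87151 and 72458 to 18534, 17816 and 15874 (log2 fold change -2.06 ± 0.22, adjusted p = 3.61e-08). Of 33 genes of the lysosome and its proton pump, 10 were higher and 15 lower. The enzyme genes Hexa (-2.65 ± 0.14), Galc (-3.01 ± 0.21) and Lipa (-2.24 ± 0.11) fell, as did the pump gene Atp6v0a1, named after its values were seen (-0.90 ± 0.12), whereas the pump genes Atp6v0c (0.91 ± 0.13) and Atp6v1e1 (1.20 ± 0.15) and the sterol carrier gene Npc2 (0.85 ± 0.09) rose. With the libraries scaled to the same sum, 1 member of that list was called higher and 17 lower, and under quantile scaling Npc2 (-0.08) and Atp6v0c (-0.15) were on the other side of 0.

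Adhesion and G protein-coupled receptors changed in both directions. Itgb5, the β5 integrin of phagocytosis, fell from 7471, 9652 and 8618 to 423, 480.5 and 520.3 (log2 fold change -4.17 ± 0.16, adjusted p = 3.18e-16). The laminin receptor chain Itga6 went from 3051, 3058 and 3091 to 227, 175 and 128 (log2 fold change -4.15 ± 0.16, adjusted p = 5.78e-16). Icam1 rose from 564, 696 and 596 to 5247, 5179 and 5325 (log2 fold change 3.09 ± 0.10, adjusted p = 3.25e-17). Of 43 tested G protein-coupled receptors outside the chemokine receptors, 18 rose and 15 fell. Hcar2, a receptor for hydroxybutyrate and niacin, went from 33.9, 97.5 and 53.1 to 6355, 6578 and 5824 (log2 fold change 6.77 ± 0.29, adjusted p = 2.6e-15). The adenosine receptor gene Adora2a went from 0, 25.3 and 6.94 to 272, 291 and 316 (log2 fold change 5.63 ± 0.75, adjusted p = 1.2e-06). Cnr2, the gene targeted in the CB2-/- line, fell in these wild-type cells from 178, 230.0 and 233 to 22, 18.3 and 20.7 (log2 fold change -3.32 ± 0.54, adjusted p = 2.16e-05). The chemokine receptor Cxcr4 fell (-5.56 ± 0.41) where Ccrl2 (5.22 ± 0.21) and Ccr7 (6.93 ± 0.90) rose, and the regulators of G protein signalling Rgs2 (-5.45 ± 0.29) and Rgs10 (-3.69 ± 0.17) fell. Clic5 (ENSMUSG00000023959.8, chr17:44188584-44280172 on the plus strand in GRCm38), of the chloride intracellular channel family, had the highest log2 fold change of the genes named, from 0, 0 and 2.21 to 1698, 1832 and 2168 (log2 fold change 10.32 ± 0.64, adjusted p = 2.24e-12). Its relative Clic4 rose from 1072, 1311 and 971 to 7767, 7340.3 and 7396 (log2 fold change 2.76 ± 0.15, adjusted p = 1.57e-13). The ATP-gated channel gene P2rx7 fell (-2.35 ± 0.32).

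Receptors for microbes and debris changed in both directions as well. Marco, a scavenger receptor for bacteria, stood at 67.7, 52.9 and 58.8 and at 3265, 3557 and 4019 (log2 fold change 5.90 ± 0.19, adjusted p = 1.08e-17). The mycobacterial glycolipid receptor gene Clec4e (Mincle) stood at 140.3, 143 and 238 and at 10869, 11152 and 9314 (log2 fold change 5.94 ± 0.24, adjusted p = 7.4e-16). Timd4, a phosphatidylserine receptor, stood at 1.09, 23.5 and 17 and at 1129.7, 1068 and 1009.6 (log2 fold change 6.78 ± 1.01, adjusted p = 6.02e-06). The mannose receptor gene Mrc1 fell from 514, 518 and 627 to 32.4, 31.2 and 56.7 (log2 fold change -3.80 ± 0.42, adjusted p = 6.55e-08) and the neonatal Fc receptor gene Fcgrt by -2.68 ± 0.25. In complement, 11 of 22 genes rose and 4 fell. C3, the central component, went from 6959, 9671 and 7482 to 53222, 55257 and 67069 (log2 fold change 2.87 ± 0.13, adjusted p = 1.05e-14). Cfb, the alternative pathway protease, went from 0, 58.4 and 39.3 to 1713, 1864 and 1898 (log2 fold change 7.09 ± 0.84, adjusted p = 2.03e-07).

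The itaconate gene Acod1 and some genes of arginine and polyamine metabolism rose. Of the 18 enzymes of arginine, proline and polyamines 5 were higher and 2 lower (median 0.07), and 11 did not pass the test. As shares these are 27.8% and 11.1%, near the 21.7% and 18% of all genes tested. Acod1, which makes itaconate, stood at 129, 90.8 and 171 and at 32936, 33954 and 31584 (log2 fold change 8.01 ± 0.33, adjusted p = 1.4e-15). The cationic amino acid transporter gene Slc7a2 stood at 15.4, 113 and 45.7 and at 26699, 25039 and 21878 (log2 fold change 9.11 ± 0.56, adjusted p = 2.13e-12). Ass1, which recycles citrulline to arginine, stood at 252, 336 and 409 and at 5049, 5294 and 4620.2 (log2 fold change 3.93 ± 0.31, adjusted p = 1.99e-10). Odc1, the first enzyme of polyamine synthesis, rose from 305, 523 and 392 to 2920.1, 2869 and 2609.7 (log2 fold change 2.81 ± 0.21, adjusted p = 1.01e-10). Sat1, which catabolises polyamines, fell from 4000.2, 3106 and 3735 to 1253, 1127 and 1085 (log2 fold change -1.64 ± 0.12, adjusted p = 4.27e-11), and the polyamine oxidase gene Paox by -1.85 ± 0.59. The fall of Paox was not called against the other unstimulated wild-type libraries (-0.56, adjusted p = 0.486), without unstimulated replicate 2 (adjusted p = 0.0582) or without stimulated replicate 3 (adjusted p = 0.0709 in limma). The NAD-consuming ectoenzyme gene Cd38 (5.43 ± 0.38), the tryptophan-degrading enzyme genes Ido2 (4.98 ± 1.08) and Kynu (4.14 ± 1.0) and the tryptophanyl-tRNA synthetase gene Wars (2.78 ± 0.10) rose. In the mitochondrial folate pathway Mthfd2 (3.06 ± 0.13) and Mthfd1l (3.48 ± 0.33) rose. The methionine synthase gene Mtr, of the same list of serine, one-carbon and methylation enzymes, fell (-1.64 ± 0.25). Against the other unstimulated wild-type libraries the rise of Mthfd1l was 0.62 and not called (adjusted p = 0.135 in limma).

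Glycolysis genes were higher in 16 of 23 cases and lower in 3, and genes of the hypoxia response in 15 of 23 and 3. Hk3, a hexokinase of myeloid cells, went from 922, 730.2 and 1070.1 to 14152, 15356 and 15487 (log2 fold change 4.06 ± 0.11, adjusted p = 3.55e-19). Pgk1 went from 1735, 2449.6 and 2204 to 16862, 16985 and 14973 (log2 fold change 2.95 ± 0.16, adjusted p = 2.68e-13). The glucose transporter gene Slc2a1 went from 751, 699.8 and 840.1 to 5556, 5604 and 5269 (log2 fold change 2.84 ± 0.22, adjusted p = 1.95e-10). The counts of both lists depended on the control libraries: against the other 3 unstimulated wild-type libraries, 5 glycolysis genes were higher and 7 lower (median 0.08), and 3 hypoxia genes were higher and 8 lower (median -0.74). Pgk1 averaged 10604 and Slc2a1 3939.8 in those libraries, against 2129.6 and 764 in the controls used here. Slc2a1 was then not called (0.48), whereas Hk3 and Pgk1 stayed called higher. The lactate dehydrogenase gene Ldhb fell from 1014, 1570.4 and 1235 to 139.5, 137 and 114 (log2 fold change -3.26 ± 0.32, adjusted p = 7.48e-09). Idh1, the cytosolic isocitrate dehydrogenase, fell from 1233, 1298 and 1399 to 81.2, 88.6 and 64 (log2 fold change -4.06 ± 0.15, adjusted p = 1.4e-16) and the mitochondrial Idh2 by -2.24 ± 0.28. The cytochrome c gene Cycs rose (2.23 ± 0.26), while of 32 nuclear genes of oxidative phosphorylation 23 were not called.

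Genes of sterol synthesis fell together, with 19 of 25 genes of cholesterol synthesis and efflux lower and 3 higher (median -1.36). Sqle, squalene epoxidase, stood at 391, 341 and 315 and at 36.9, 44.5 and 36.5 (log2 fold change -3.12 ± 0.23, adjusted p = 5.57e-11). Cyp51 stood at 654, 405 and 533 and at 50.2, 79 and 67.3 (log2 fold change -3.0 ± 0.34, adjusted p = 8.17e-08). Idi1 stood at 427, 292 and 278 and at 20.8, 31.3 and 51.9 (log2 fold change -3.29 ± 0.43, adjusted p = 7.88e-07). The members that rose were Ch25h, which makes 25-hydroxycholesterol, from 39.3, 82.4 and 90 to 9820.3, 9457 and 8790.5 (log2 fold change 7.12 ± 0.42, adjusted p = 1.1e-12), the efflux pump gene Abcg1 (1.52 ± 0.13) and Nr1h3 (3.07 ± 0.36). Against the other unstimulated wild-type libraries 10 members were lower and 4 higher, Abcg1 was lower (-0.98) and Cyp51 was no longer called (-0.66). Fatty acid oxidation genes were lower in 11 of 24 cases, among them Hadh (-2.87 ± 0.33) and Acaa2 (-2.57 ± 0.23).

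In prostaglandin synthesis the inducible enzyme genes rose and the constitutive cyclooxygenase gene fell. Ptgs2 (cyclooxygenase 2) stood at 66.2, 349 and 102 and at 65465, 67534 and 62151 (log2 fold change 8.92 ± 0.50, adjusted p = 4.33e-13). Ptges, the inducible prostaglandin E synthase, stood at 15.3, 108 and 37.3 and at 13168, 13718 and 14346 (log2 fold change 8.40 ± 0.48, adjusted p = 4.87e-13). Ptgs1 (cyclooxygenase 1) stood at 543, 1622 and 1198 and at 27.7, 29.8 and 18.7 (log2 fold change -5.30 ± 0.71, adjusted p = 1.37e-06). Lipid mediator and lipid droplet genes as a list had 15 of 27 higher and 7 lower. The 4 leukotriene synthesis genes in it were among the lower: Alox5 (5-lipoxygenase) went from 96.4, 161 and 107 to 3.64, 2.8 and 6.49 (log2 fold change -4.55 ± 0.73, adjusted p = 1.66e-05). Its activating protein gene Alox5ap went from 459.5, 1037 and 863 to 106, 80.7 and 103 (log2 fold change -2.94 ± 0.46, adjusted p = 1.24e-05). The leukotriene A4 hydrolase gene Lta4h (-1.0 ± 0.15) and the leukotriene C4 synthase gene Ltc4s (-4.60 ± 0.88), both named after their values were seen, fell as well. The lipid droplet gene Hilpda rose from 42.4, 55.2 and 85.6 to 1661, 1699.8 and 1419 (log2 fold change 4.74 ± 0.26, adjusted p = 2.36e-13), and was not called against the other unstimulated wild-type libraries (0.31).

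Iron genes changed in both directions. In the list of zinc, copper, iron and metallothionein genes 13 of 24 were higher and 6 lower. The ferritin heavy chain gene Fth1 stood at 64564, 56719.5 and 61827 and at 254707, 223931 and 238080.0 (log2 fold change 1.97 ± 0.13, adjusted p = 5.23e-12). The light chain gene Ftl1 stood at 53212, 45671 and 49290.5 and at 35893, 35594 and 36728 (log2 fold change -0.45 ± 0.11, adjusted p = 0.00143), a fall that was not called against the other unstimulated wild-type libraries (-0.24, adjusted p = 0.0733 in limma). Ferritin has processed copies that can share reads. Lcn2, which binds bacterial siderophores, went from 1.36, 41.4 and 11.5 to 4243, 4133 and 4428 (log2 fold change 8.63 ± 0.59, adjusted p = 1.25e-11). The iron exporter gene Slc40a1 (ferroportin) fell from 371, 205 and 231 to 123, 36.2 and 30 (log2 fold change -2.32 ± 0.59, adjusted p = 0.00257), a fall that was not called against the other unstimulated wild-type libraries (-1.02), and the transferrin gene Trf from 17575, 19098 and 19736 to 2701, 2669.9 and 2262 (log2 fold change -2.89 ± 0.42, adjusted p = 4.28e-06). Antioxidant genes rose in 18 of 32 cases: the mitochondrial superoxide dismutase gene Sod2 went from 814, 657 and 768 to 17326, 17001 and 17220.2 (log2 fold change 4.53 ± 0.13, adjusted p = 1.87e-18) and the peroxiredoxin genes Prdx1 and Prdx5 changed by 2.82 ± 0.16 and 3.18 ± 0.14, whereas the glutathione peroxidase gene Gpx1 fell (-1.89 ± 0.15).

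Proteases and their inhibitors in the extracellular space were led by the matrix metalloproteinases, 10 of 16 higher and 1 lower. Mmp12, the macrophage elastase, stood at 299.6, 235 and 266 and at 4382, 4329.6 and 3204 (log2 fold change 3.88 ± 0.47, adjusted p = 2.45e-07). The membrane-anchored Mmp25 stood at 6.56, 0 and 6.27 and at 495, 477 and 625 (log2 fold change 7.12 ± 0.83, adjusted p = 1.67e-07). The inhibitor gene Timp2 fell from 1374, 2147 and 1805 to 318, 294 and 323 (log2 fold change -2.48 ± 0.23, adjusted p = 3.1e-09). Against the other unstimulated wild-type libraries Mmp12 was at -0.93 and not called. Procr, the endothelial protein C receptor, rose from 28.2, 35.7 and 45.5 to 7807, 8517 and 8959 (log2 fold change 7.84 ± 0.28, adjusted p = 1.4e-16). The C1 inhibitor gene Serping1 went from 0, 12.5 and 5.48 to 268, 238 and 287 (log2 fold change 5.90 ± 0.87, adjusted p = 5.37e-06). Fibronectin (Fn1) stood at 5127, 28685 and 20351 and at 1428, 1648 and 1083 (log2 fold change -3.40 ± 0.72, adjusted p = 0.000474). The collagen genes Col1a1 and Col3a1 were at 0, 1425 and 172 and at 0, 431 and 82.1 in the unstimulated libraries. In the stimulated libraries they were at 236, 280 and 253 and at 131, 170 and 43.4, and neither was called. Of 15 fibroblast and meningeal markers tested, 1 was higher and 2, Fn1 among them, were lower. The part of other cells in the fall of Fn1 was not tested. Has1, a hyaluronan synthase gene, was listed at 0 in all 3 unstimulated libraries and at 249.9, 202 and 169.5 in the stimulated ones, as were Il12rb1, a subunit of the interleukin-12 receptor, at 147, 98.1 and 126, and Heatr9 at 91.6, 122 and 145. They are among 42 genes tested that were at 0 in every unstimulated and at 10 or more in every stimulated library, against 9 in the opposite direction.

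Stress response genes were mostly higher. Of 27 genes of the unfolded protein and integrated stress responses 22 were higher and 1 lower, such as the pseudokinase gene Trib3 (5.0 ± 0.72) and Manf (2.32 ± 0.15), with Eif2ak3, the sensor kinase PERK, lower (-1.27 ± 0.27). Of 22 chaperone genes 14 were higher and 0 lower, led by the inducible Hsp70 paralogs: Hspa1a stood at 24, 0 and 0 and at 978, 567 and 724 (log2 fold change 7.98 ± 0.77, adjusted p = 5.91e-09). Hspa1b stood at 0, 15.1 and 4.8 and at 663, 414 and 511 (log2 fold change 6.84 ± 0.63, adjusted p = 2.84e-09). Actin cytoskeleton genes were higher in 24 of 32 cases, including Marcksl1 (3.03 ± 0.22) and Capg (1.88 ± 0.09), with Gsn, gelsolin, lower (-2.02 ± 0.14). Under quantile scaling 7 actin genes were higher and 8 lower. Ribosomal protein and translation factor genes fell in 23 of 39 cases, such as Rpl7 (-0.68 ± 0.09) and Rps19 (-0.72 ± 0.10), while the translation regulator gene Eif4ebp1 rose (1.83 ± 0.19), which was not called against the other unstimulated wild-type libraries (0.33, adjusted p = 0.195 in limma).

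Cell death genes rose in 23 of 38 cases and fell in 2. Mlkl, the executioner of necroptosis, went from 45.8, 36.7 and 31.4 to 1689.8, 1555 and 1647 (log2 fold change 5.40 ± 0.48, adjusted p = 1.61e-09). The death receptor gene Fas went from 53.7, 60.8 and 41.1 to 957, 881 and 864 (log2 fold change 4.11 ± 0.30, adjusted p = 4.35e-11). The inflammasome sensor gene Nlrp3 went from 458, 362 and 435 to 5606, 5763 and 5742 (log2 fold change 3.77 ± 0.27, adjusted p = 2.89e-11). The pair that fell encode BH3-only proteins, which start mitochondrial apoptosis: Bmf went from 1030.1, 891 and 741 to 8.42, 6.15 and 14.6 (log2 fold change -6.43 ± 0.39, adjusted p = 1.28e-12). Bcl2l11 (Bim) went from 766, 605 and 640.0 to 116, 153 and 87.3 (log2 fold change -2.51 ± 0.21, adjusted p = 4.53e-10). Replication and mitosis genes had no common direction, 6 of 36 higher and 9 lower. These are 16.7% and 25%, near the 21.7% and 18% of all genes tested. The cyclin genes Ccne1 (5.02 ± 1.0) and Ccnd1 (2.42 ± 0.26) rose, and the replication helicase genes Mcm3 (-1.51 ± 0.28) and Mcm4 (-1.59 ± 0.24) and the centromeric histone gene Cenpa (-3.76 ± 0.54) fell. The trophic factor gene Hgf fell from 373, 349 and 366 to 3.91, 3.5 and 3.7 (log2 fold change -6.28 ± 0.66, adjusted p = 2.86e-08).

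**Figure D4:**
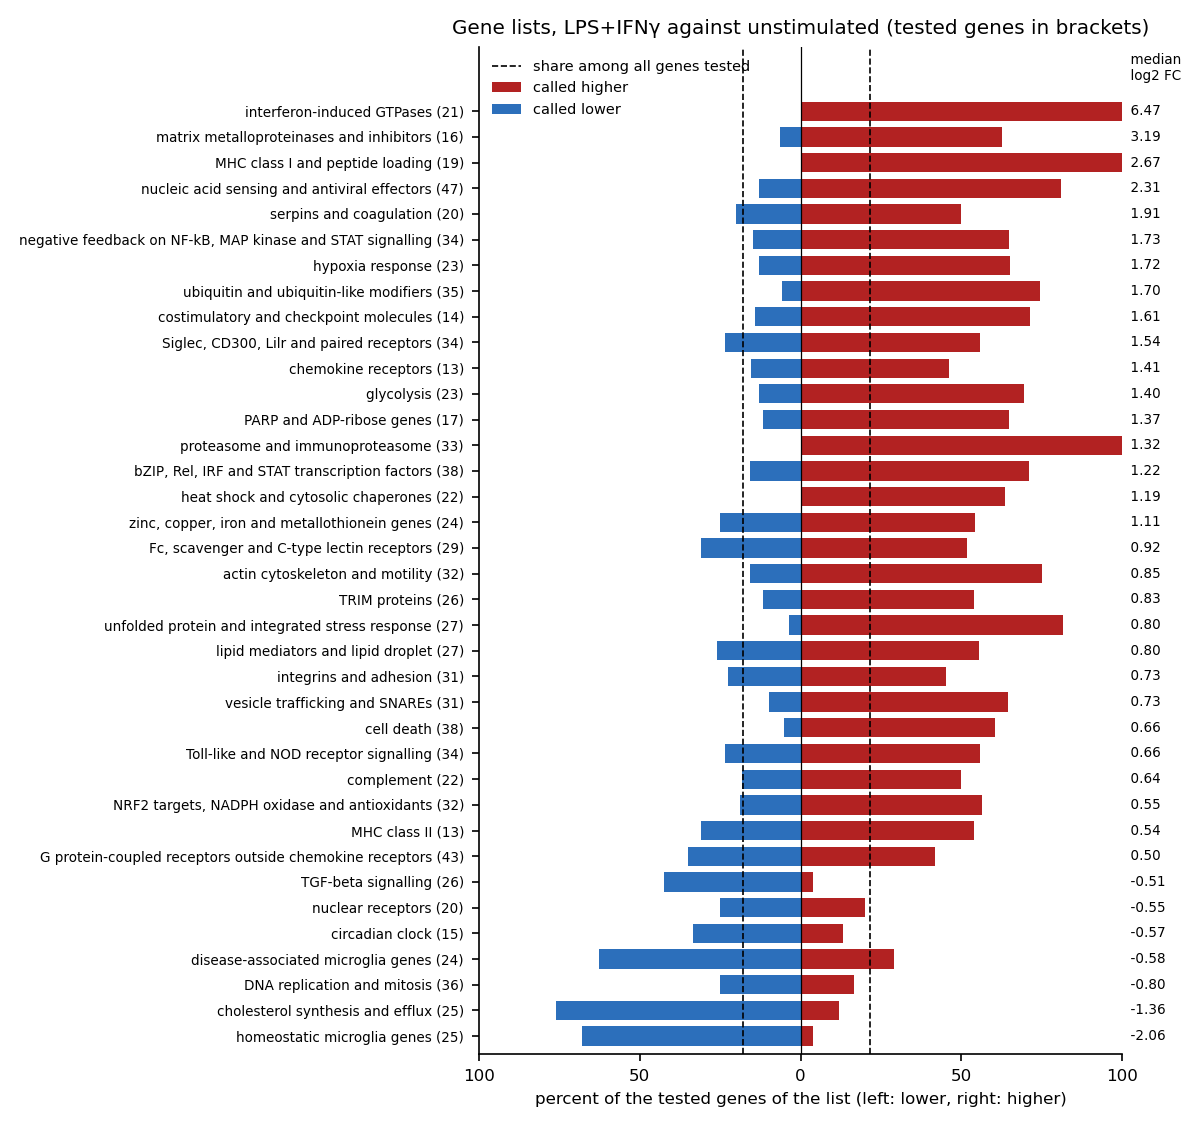
Bars show the percentage of the tested genes of each of 37 lists that were called higher (right) or lower (left), with the share among all genes tested as dashed lines and the list's median log2 fold change at the right. The lists drawn have a median at least 0.5 from 0, 30 above and 7 below. The medians of MHC class II and complement turned negative under quantile scaling, that of G protein-coupled receptors under scaling to the same sum, and that of the hypoxia response against the other unstimulated wild-type libraries.

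Part of the genes tested stayed close to their level on the deposited scaling. The 95% interval of the log2 fold change lay within -0.5 to 0.5 for 855 genes and within -1 to 1 for 4297. Among the former was the complement gene C1qb, named after its values were seen, with 19488, 22766 and 21228 in the unstimulated and 23306, 22038 and 23647 in the stimulated libraries (log2 fold change 0.12 ± 0.14, adjusted p = 0.529), although quantile scaling gave -0.82 and the other unstimulated wild-type libraries as controls gave 0.88, called as higher (adjusted p = 1.66e-05 in limma). The genes of the other C1q chains, also named after their values were seen, were called lower in limma. C1qa changed by -0.75 ± 0.13 (adjusted p = 5.48e-05) and C1qc by -0.45 ± 0.14 (adjusted p = 0.0106). By gene class, 22.3% of tested protein-coding genes rose and 19.8% fell, and 19.6% and 11.5% of long intergenic noncoding RNAs. Protein-coding genes higher by at least 3 on the log2 scale had a median span of 16.1 kb and 7 exons, where genes not called had 24.9 kb and 9 exons and genes lower by at least 3 had 29.6 kb and 9. Among noncoding host genes Mir155hg, the precursor of the inflammatory microRNA miR-155, went from 12, 0 and 2.95 to 535, 618 and 473 (log2 fold change 7.18 ± 0.64, adjusted p = 1.68e-09). Mir22hg went from 207, 125 and 131 to 644, 666 and 678 (log2 fold change 2.13 ± 0.18, adjusted p = 7.84e-10).

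Against PolyI:C, another stimulus of the same cells, 1358 genes (9.26%) differed after LPS+IFNγ in the direct test of the groups, 785 (5.35%) higher and 573 (3.91%) lower. Both stimuli share their unstimulated controls, so the values are set side by side. On the higher side were 8 of 13 class II genes, with 0 lower, and 14 of 21 GTPases, with 1 lower. H2-Aa had a log2 fold change of 6.10 under LPS+IFNγ and 0.79 under PolyI:C (difference 5.31 ± 0.99, adjusted p = 0.000692). Rgs9, a regulator of G protein signalling, had 5.14 and -0.12 (difference 5.26 ± 0.84, adjusted p = 0.000124). The amino acid transporter gene Slc6a19 had 5.90 and -0.50 (difference 6.39 ± 0.83, adjusted p = 8.75e-06). The complement protease gene C1s1 had 5.26 and -0.38 (difference 5.65 ± 1.18, adjusted p = 0.00219). Irf1 (4.66 and 1.94, adjusted p = 1.52e-09), Socs1 (7.72 and 3.98, adjusted p = 0.000327) and Prdx1 (2.82 and 1.04, adjusted p = 3.48e-08) were higher under LPS+IFNγ as well. On the lower side stood 18 of 47 sensing and antiviral genes, while 4 were higher. Slfn4, of the lower ones, was at 7.63 and 10.62 (adjusted p = 0.0276). The interferon-induced gene Ifit1bl1 was at 5.03 and 8.53 (adjusted p = 0.00416). Outside that list, the leukotriene receptor gene Cysltr1 was at -2.42 and -0.24 (adjusted p = 1.73e-07). Mertk moved in opposite directions, 1.49 and -1.49 (adjusted p = 2.75e-13).

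Against CpG, 4812 genes (32.8%) differed, and 2887 (19.7%) were higher and 1925 (13.1%) lower after LPS+IFNγ. All 21 GTPases and 44 of 47 sensing and antiviral genes were higher, with 1 of the latter lower. Tgtp2 stood at 7.12 under LPS+IFNγ and -2.83 under CpG (difference 9.95 ± 0.49, adjusted p = 4.52e-14). Fam26f, a pore-forming membrane protein gene, stood at 6.81 and -4.06 (difference 10.87 ± 0.54, adjusted p = 4.91e-14). Clic5 stood at 10.32 and -0.17 (difference 10.49 ± 0.64, adjusted p = 2.63e-12). Lower than under CpG were Mmp9, gelatinase B, at 4.96 and 8.73 (adjusted p = 0.000102). The citrate cycle metabolite transporter gene Slc13a3 was at 3.30 and 10.10 (adjusted p = 1.03e-10). Against the other unstimulated wild-type libraries the LPS+IFNγ rises of Mmp9 (0.87, adjusted p = 0.327) and Slc13a3 (1.20, adjusted p = 0.0608) were not called in limma. Tmem176b was at -3.74 and -0.14 (adjusted p = 4.9e-13). Cd86 rose under LPS+IFNγ (3.86) and was at -1.86 under CpG (adjusted p = 6.18e-16).

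**Figure D5:**
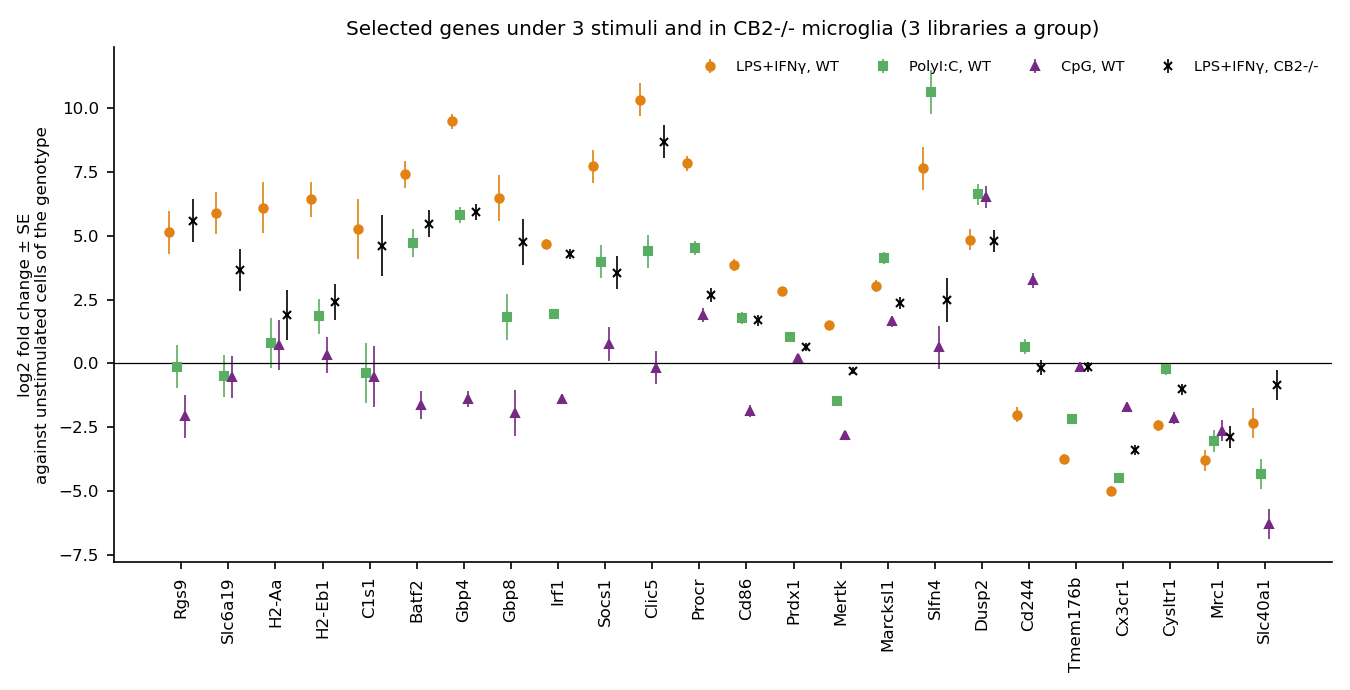
Log2 fold changes ± SE against unstimulated cells of the same genotype for 24 genes, under LPS+IFNγ (orange circles), PolyI:C (green squares) and CpG (purple triangles) in wild-type cells and under LPS+IFNγ in CB2-/- cells (black crosses), with 3 libraries a group. The wild-type stimuli share 1 set of controls. Rgs9, Slc6a19 and H2-Aa lie between 5.14 and 6.10 under LPS+IFNγ and below 1 under PolyI:C and CpG.

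The same treatment of CB2-/- microglia shares no library with the wild-type comparison and gave a response of like direction and smaller size. Of the 5830 genes called in wild type, 86.4% had the same sign in CB2-/- cells. Of those higher in wild type, 1513 (47.5%) were called higher there (background 12.8%) and 64 lower. Of those lower, 1117 (42.2%) were called lower (background 10.9%) and 24 higher. In turn 75.8% of the 3471 genes (23.7%) called in CB2-/- cells were called the same way in wild type. The median log2 fold change of genes called higher in wild type was 1.36 there and 0.60 in CB2-/- cells, and of genes called lower -1.29 and -0.61. Since the genes were called on the wild-type values, part of such a gap is built in. Across all genes tested Pearson's r was 0.68, as a description, since genes are not independent. The difference between the responses passed the test at 1810 genes (12.3%), 584 (3.98%) with a higher and 1226 (8.36%) with a lower value in CB2-/- cells. Genotype and library number series are the same split for the stimulated cells, so the 2 cannot be told apart. Cnr2 itself averaged 394 in unstimulated and 227 in stimulated CB2-/- libraries, against 214 and 20.3 in wild type, and such a gene-level value can include reads of the part that is not deleted, so it does not check the label. Irf1 rose by 4.66 in wild-type and 4.29 in CB2-/- cells (difference -0.38 ± 0.28, adjusted p = 0.474). Rgs9 rose by 5.14 and 5.59 (difference 0.44 ± 1.19, adjusted p = 0.876). Trem2 stood at -3.45 and -2.88 (difference 0.58 ± 0.35, adjusted p = 0.347). Ass1 rose by 3.93 in wild-type and 0.76 in CB2-/- cells (adjusted p = 1.84e-05). Procr rose by 7.84 and 2.68 (adjusted p = 5.35e-09). Mmp12 and Tmem176b responded in wild type at 3.88 and -3.74 and stood at -0.93 and -0.14 in CB2-/- cells (adjusted p = 1.55e-05 and 6.88e-09). With the other unstimulated wild-type libraries as controls, however, the wild-type response of Mmp12 was also -0.93 and not called.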

How the data were processed

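RNA of cultured microglia was sequenced as 27 libraries in 9 groups of 3, and the 6 libraries described here were grouped by their labels. The deposited table holds the authors' normalised counts, a scaled signal per gene that is never negative and gives no depth; whole reads could not be recovered from it. CASAVA 1.8, kallisto and DESeq2 are named, per the submitters' processing notes, and the genome build is not given in the sources used here. A second deposited table holds other values, on a log2 scale after the authors' batch correction, and served as an alternative. The labels describe 2 library protocols without assigning them to libraries.

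Tests covered the 14668 of 23995 genes that reached 10 in 3 or more libraries. Values were taken as log2(normalised count + 1), with a pseudocount of 1, which understates the change of low genes. One limma 3.58.1 fit (R 4.3.3) of all 27 libraries, with trend, gave two-sided p-values with Benjamini-Hochberg adjustment, called under 0.05. The fit was also run on simulated data, the outcome of which is not reported here and bears on no statement above. Lists were described by counts and medians. IDs matched GENCODE M21 for 23933 genes, and promoter windows came from RefSeq (GRCm38.p6).

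Genes were named where called, separated between groups and averaging at least 100 in the higher group: the largest changes of all, the 3 highest and 3 lowest of each list, the largest changes in level, genes at 0 in 1 group, and the 8 highest and lowest of each other comparison. Cytokines, chemokines and 14 genes already described were left out, and exceptions are said. The rule selects 375 genes, of which the text leaves many out, mostly list members; some genes are not reported here. The members and lists were chosen with earlier results of these data known. Alternatives were the pseudocount, filter, scaling, libraries in the fit, weights, table, controls and each replicate left out.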

Additional observations from a re-analysis of the deposited data

Results flagged for a closer look

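The log2 fold change under LPS+IFNγ differed between CB2-/- and wild-type cells, by the test of the difference itself in limma, at 116 of the 202 genes named above. Values below are the CB2-/- minus the wild-type log2 fold change, with 3 libraries a group. In all 116 the response was nearer 0 in CB2-/- cells, and the genes were named for their response in wild type, so a difference of that direction is partly built in. The responses had the same sign in both genotypes at 111 of them. Genotype and library number series cannot be told apart. Some of these differences rest on the wild-type controls used. With the other unstimulated wild-type libraries, the wild-type responses of Hilpda (0.31), Mmp9 (0.87), Mthfd1l (0.62), Slc2a1 (0.48), Eif4ebp1 (0.33) and Cyp51 (-0.66) were not called. Those of Mmp12 (-0.93) and Abcg1 (-0.98) changed sign.

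Among interferon-induced GTPase, sensing and antiviral genes, the change was lower in CB2-/- cells at Slfn4 (-5.15), Slfn1 (-5.07), Iigp1 (-3.85), Rsad2 (-3.72), Gbp4 (-3.53), Gbp2 (-3.46), Gbp5 (-2.86), Isg15 (-2.64) and Cmpk2 (-2.15). It was higher at Apobec1 (1.24) and Mavs (0.79).

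Among antigen presentation genes, the change was lower in CB2-/- cells at H2-Eb1 (-4.03), H2-Ab1 (-3.03), H2-Q6 (-2.34), Tap1 (-1.84), H2-Q7 (-1.75), Psme2 (-1.34), Psmb8 (-1.26), B2m (-0.66), H2-D1 (-0.58) and H2-K1 (-0.55).

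Among surface molecules of lymphocyte contact, receptors for microbes and complement, the change was lower in CB2-/- cells at Il12rb1 (-6.32), Marco (-4.04), Cfb (-3.76), Slamf7 (-3.45), Cd274 (-2.94), Clec4e (-2.65), Cd40 (-2.19) and Cd86 (-2.17). It was higher at Cd300a (2.31), Tlr2 (2.11), Vsir (1.98), Ifngr1 (1.72) and Fcgrt (1.53).

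Among transcription factors, feedback and signalling genes, the change was lower in CB2-/- cells at Socs1 (-4.16), Traf1 (-3.69), Pim1 (-2.59), Socs3 (-2.42), Zc3h12a (-1.84), Ets2 (-1.83), Klf6 (-1.24), Jak2 (-1.2), Irf8 (-1.12) and Irak3 (-0.77). The same direction was found at Mir155hg (-3.61) and Mir22hg (-1.19). It was higher at Cebpa (1.62), Tgfbr1 (1.31), Rxrb (1.18), Rgs10 (1.14), Tgfbi (1.03) and Zfp36l2 (0.76).

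Among homeostatic, adhesion, channel and G protein-coupled receptor genes, the change was lower in CB2-/- cells at Hcar2 (-4.12), Itgax (-2.76), Mertk (-1.77), Clic4 (-1.64) and Ccrl2 (-1.28). It was higher at Tmem119 (3.63), Gpr34 (2.92), Cnr2 (2.54), P2rx7 (1.93), Cxcr4 (1.74), Itga6 (1.65), Cx3cr1 (1.61), Csf1r (1.55), Cysltr1 (1.4) and Itgb5 (1.34). The same direction was found at Tmem176b (3.6).

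Among metabolic, lipid and iron genes, the change was lower in CB2-/- cells at Slc7a2 (-4.07), Acod1 (-3.41), Ass1 (-3.17), Pgk1 (-2.73), Hk3 (-2.65), Mthfd1l (-2.6), Mthfd2 (-2.56), Cd38 (-2.31), Odc1 (-2.02) and Wars (-1.09). The same direction was found at Ch25h (-4.91), Ptgs2 (-4.18), Ptges (-4.16), Hilpda (-4.14), Lcn2 (-2.9), Slc2a1 (-2.2), Cycs (-1.48), Abcg1 (-1.27), Sod2 (-0.85) and Fth1 (-0.84). The same direction was found at Prdx1 (-2.18) and Prdx5 (-1.77). It was higher at Idi1 (2.25), Cyp51 (2.2), Sqle (2.08), Idh1 (1.54), Ldhb (1.44) and Sat1 (0.98).

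Among protease, stress, lysosome, cell death and cycle genes, the change was lower in CB2-/- cells at Hspa1a (-5.19), Procr (-5.16), Mmp12 (-4.82), Hspa1b (-4.55), Mmp9 (-4.08), Trib3 (-3.59), Capg (-1.98), Eif4ebp1 (-1.5), Manf (-1.11) and Atp6v1e1 (-0.9). The same direction was found at Mlkl (-2.74), Ccnd1 (-2.42), Nlrp3 (-1.46), Atp6v0c (-0.79) and Npc2 (-0.53). It was higher at Bmf (3.29), Bcl2l11 (1.6), Mcm4 (1.48), Galc (1.12) and Hexa (0.74).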

How the results depend on the processing

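The counts of genes higher and lower in stimulated cells stayed within 1.5 times of those reported under every alternative except a minimum log2 change of 1 (limma's treat), with 1074 and 597, and scaling to the same sum, chosen after seeing the data, with 1537 and 4085. That scaling took the median change from 0.05 to -0.44 and the share of calls that were higher from 54.6% to 27.3%; quantile scaling took them to -0.06 and 46%. Leaving out 1 library at a time gave 2808 to 3155 higher and 2249 to 2444 lower. Against PolyI:C the range was 555 to 792 and 386 to 525, against CpG 2432 to 3244 and 1584 to 1938, and for the difference between genotypes 433 to 617 and 996 to 1306. Array weights gave 1485 higher and 1270 lower against PolyI:C and 1885 and 2568 between genotypes, and the batch-corrected values gave 1041 lower against PolyI:C and 1138 higher between genotypes. The cause was not tested.

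Of the 202 genes named, 201 were called, of which 159 kept their call under all alternatives and 42 lost it or changed sign under at least 1, 33 of them with treat and 15 with other unstimulated wild-type libraries as controls. Abcg1 (-0.98), Ctss (0.47) and Mmp12 (-0.93) changed sign with other unstimulated wild-type libraries as controls. Atp6v0c (-0.15), C1qb (-0.82), Npc2 (-0.08) and Spi1 (-0.07) changed sign with quantile scaling. C1qb (-0.39) changed sign with scaling to the same sum. No paired analysis was possible because replicate numbers were given in accession order and pair no samples. The number of reads is not known, so no counting error can be given for low values. With 3 libraries a group, unassigned library protocols and controls that differ between the 2 unstimulated wild-type sets, small changes and those of glycolysis, hypoxia and sterol genes are the least secure.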

Other observations

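On the X chromosome 13.2% of the 395 tested protein-coding genes were higher and 23.3% lower in stimulated cells. On the autosomes the share of higher protein-coding genes ran from 17.9% to 28.3% and that of lower ones from 17.3% to 23.9%. Of 13 mitochondrially encoded transcripts, 0 were higher and 6 lower (median -0.46), whereas against the other unstimulated wild-type libraries 11 were higher and 0 lower (median 0.86). Processed pseudogenes, copies of spliced mRNAs whose reads can come from the parent gene, were higher in 117 and lower in 22 of 531 cases. The higher share, 22%, was close to the 21.7% of all genes tested, while the lower share was 4.1% against 18%.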
